A study of Mus musculus with 2 samples.

Results

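The 10 Krüppel-like factor (Klf) genes other than Klf2, Klf4 and Klf5 that are described here were measured in Klf5-overexpressing embryonic stem (ES) cells of the mouse line E14: Klf3, Klf6, Klf7, Klf9, Klf10, Klf11, Klf12, Klf13, Klf15 and Klf16. Every probe set whose platform annotation names 1 of these genes and no other was taken, which gave 35 of the 45037 probe sets on the array, for 10 of 18193 named genes. RNA of 2 overexpressing clones, clone 1 and clone 2, was hybridised to 1 Affymetrix array each, so there is 1 group with n = 2. Both clones were kept undifferentiated in serum medium with leukaemia inhibitory factor (LIF). The vector and promoter that drive Klf5 are not stated in the labels. In the study they were compared with wild-type ES clones, which are not used here. What follows is therefore the signal of each gene in both clones and the difference between the clones, not an effect of Klf5.

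Klf proteins carry zinc fingers at the C-terminus that bind CACCC elements and GC boxes, and they differ in the cofactors that their N-termini recruit. Klf3 and Klf12 bind the co-repressor CtBP. Klf9, Klf10, Klf11, Klf13 and Klf16 bind Sin3 co-repressors, and Klf6 and Klf7 carry acidic activation domains. In ES cells the family is best known for Klf2, Klf4 and Klf5, which sustain self-renewal.

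A signal is the deposited value per probe set, on a scale taken as log2. Background was set on each array at the 95th percentile of 89 probe sets from 50 adult-tissue genes (milk, lens, digestive, liver, muscle, immune and sperm proteins), which was 6.75 in clone 1 and 6.33 in clone 2. Each difference is the log2 signal of clone 2 less that of clone 1. With 1 array per clone no test was possible, and 1.5-fold or 2-fold with the higher clone above background served as fixed rules of size. Probe sets bind with different affinity, so a higher signal for one gene than for another is not read as more RNA, and the genes are not ranked by level. The labelled cell type was checked against marker genes. All 9 ES cell markers listed were above background in both clones, at 10.12 to 14.15 in clone 1 and 10.57 to 14.06 in clone 2. Of 9 fibroblast markers, which feeder cells would bring, 2 were above background in both clones (Thy1 and Pdgfrb), while Col1a1, Col1a2, Col3a1, Dcn, Lum, Postn and Twist2 were not. Of 7 primitive endoderm markers 1 (Sox17) passed, in clone 2 alone, and of 5 measured trophoblast markers 0 passed.

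All genes but Klf12, 9 of 10, had at least 1 probe set above background in both clones. Of the 35 probe sets, 21 (60.0%) were above background in both clones, 2 in clone 2 alone and 12 in neither. Over the whole array 32.6% of probe sets were above background in both clones, and 47.2% of named genes had such a probe set. The 32.6% includes probe sets with several gene symbols or none, unlike the 60.0%. The 10 Klf genes have 35 probe sets, against 34945 for the 18193 named genes. More probe sets per gene make at least 1 above background easier to reach. By the number of probe sets and by their median, the clones differed most in Klf9, though not by its brightest probe set. Of its 7 probe sets, 5 were higher in clone 2 by 0.95 to 1.32, and among the other probe sets above background 1 of Klf13 came near this, at 0.94. Of the 23 probe sets that passed background in 1 clone or both, 7 differed by 1.5-fold or more (30.4%), all higher in clone 2, where 5.55% of all 16832 probe sets so filtered did in either direction and 4.93% with clone 2 higher. Klf9 held 5 of those 7, and without Klf9, left out after its values were seen, 2 of 17 probe sets remained (11.8%). At 2-fold, 2 of the 23 differed, both of Klf9, against 0.677% of all. Probe sets of 1 gene share a transcript, so these counts are not counts of independent genes.

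**Figure D1:**
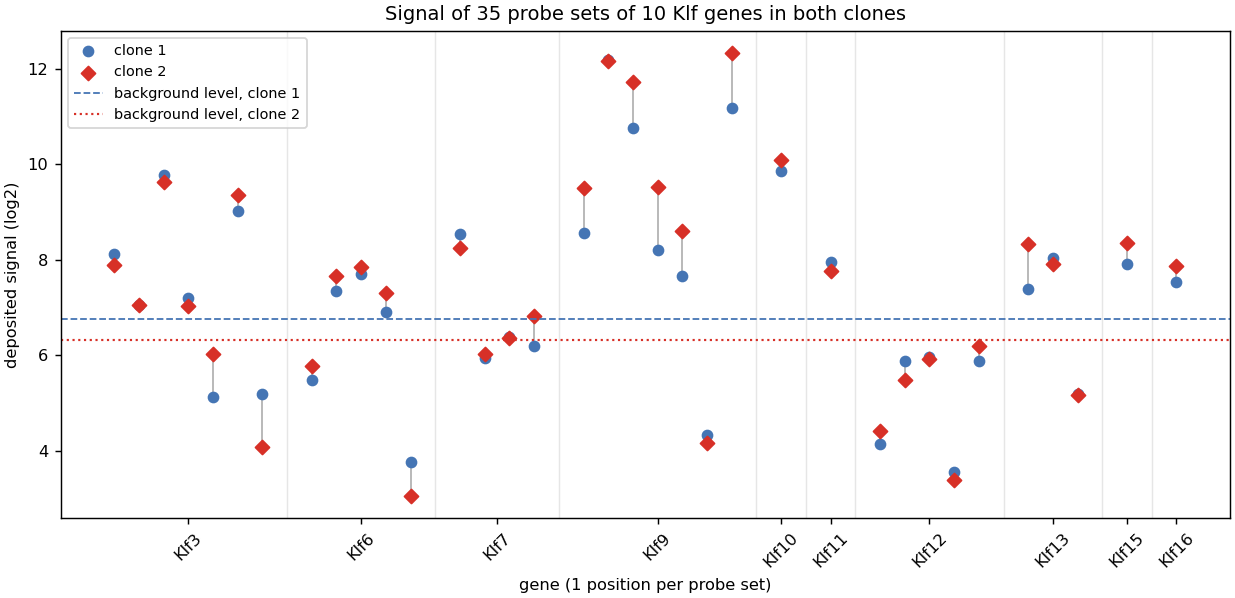
Deposited log2 signal of the 35 probe sets in clone 1 (circles) and clone 2 (diamonds), 1 position per probe set, with the background level of each array as a horizontal line. All 5 Klf12 probe sets lie under both lines, and 5 of the 7 Klf9 probe sets have clone 2 at least 0.95 above clone 1.

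Klf9, a thyroid and glucocorticoid hormone responsive member of the Sin3-binding group, was read by 7 probe sets. The probe set 1456341_a_at gave 11.18 in clone 1 against 12.32 in clone 2 (mean 11.75 ± 0.81, SD, n = 2), a difference of 1.14 or 2.20-fold. The probe set 1436763_a_at gave 8.21 and 9.53 (8.87 ± 0.93), a difference of 1.32 or 2.50-fold. The probe set 1428289_at gave 10.76 and 11.71, a difference of 0.95 or 1.93-fold. These 3 probe sets thus put clone 2 above clone 1 by 1.93- to 2.50-fold. The remaining pair past 1.5-fold were 1422264_s_at, at 8.56 and 9.51 (0.95), and 1436952_at, at 7.65 and 8.61 (0.96). The suffix _s_at marks a probe set that may bind transcripts of several genes, and the difference it gave was the same as that of 1428289_at.

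The brightest Klf9 probe set did not follow the other 5. The probe set 1428288_at gave 12.18 in clone 1 against 12.17 in clone 2, a difference of -0.01. The probe set 1452723_at gave 4.33 and 4.17, not above background in either clone. In the annotation both of these and 1428289_at point to the same sequence record, so probe sets from 1 record gave a difference near 0, a difference of 0.95 and no signal above background. A summary of Klf9 by its brightest probe set gives a difference of -0.01, and by the median of the 6 above background a difference of 0.96 (1.94-fold). Where each probe set lies along the transcript was not analysed here. Signals on these arrays reached 14.38, and saturation of 1428288_at was not tested.

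Differences of this size were rare at the same signal. The filtered probe sets were divided into 4 bands of nearly equal size by mean signal. In the brightest band 3 of 4211 probe sets (0.0712%) differed by as much as 1456341_a_at, itself included, and 13 (0.309%) by as much as 1428289_at. In the next band 7 of 4206 (0.166%) differed by as much as 1436763_a_at. Of 1115 genes with at least 3 probe sets above background in both clones, 4 had a median difference at least as far from 0 as Klf9's, namely Klf9, Meg3, Rab10 and Six4. Among single-symbol probe sets above background in both clones, Klf9 was the 1 gene with at least 5 past 1.5-fold in the same direction. Probe sets above background in 1 clone alone were left out of this count. A gene needs at least 5 such probe sets to show this, and the number of genes with 5 or more was not counted. Only 36 genes had the 6 or more probe sets above background in both clones that Klf9 had. Both counts over genes were made after the Klf9 values were seen.

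**Figure D2:**
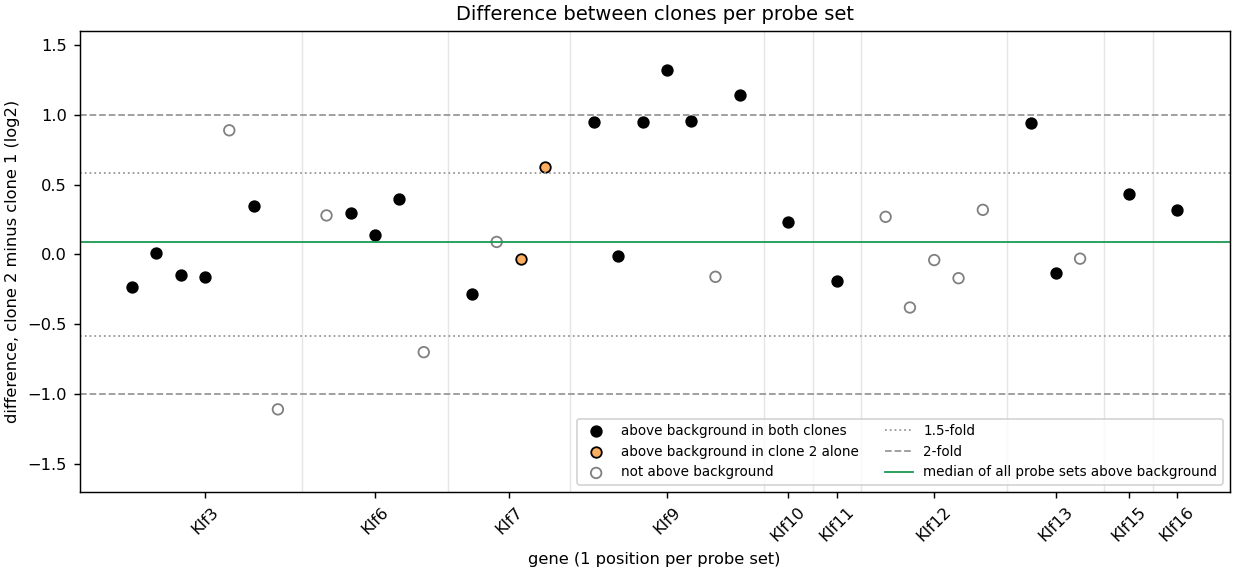
Difference between the clones (clone 2 minus clone 1, log2) for each of the 35 probe sets; filled black points were above background in both clones, orange points in clone 2 alone and open points in neither. The 5 high Klf9 points and 1 Klf13 point lie between 0.94 and 1.32, while the sixth black Klf9 point lies at -0.01.

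For Klf9 the region upstream of the annotated start is shown beside that of Klf3, whose 5 probe sets above background differed by 0.35 or less, since Klf proteins bind CACCC elements and GC boxes in promoters of this kind. Both are from RefSeq, build GRCm38.p6, plus strand, 250 bases ending just before the start, with matches to CACCC and GGGCGG or their reverse complements in capitals.
Klf9, chr19:23140976-23141225: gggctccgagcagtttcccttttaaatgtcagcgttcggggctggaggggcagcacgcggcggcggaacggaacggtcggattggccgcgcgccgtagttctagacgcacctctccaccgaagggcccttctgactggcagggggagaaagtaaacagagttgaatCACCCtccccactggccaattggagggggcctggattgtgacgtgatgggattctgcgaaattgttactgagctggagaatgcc
Klf3, chr5:64803271-64803520: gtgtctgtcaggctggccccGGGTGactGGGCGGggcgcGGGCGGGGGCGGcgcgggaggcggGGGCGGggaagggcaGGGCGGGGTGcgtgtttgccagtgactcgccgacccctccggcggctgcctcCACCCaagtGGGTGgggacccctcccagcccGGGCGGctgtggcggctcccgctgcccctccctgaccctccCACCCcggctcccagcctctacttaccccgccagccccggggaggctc
The Klf9 window held 1 CACCC match and 0 GGGCGG matches, and the Klf3 window 5 and 6. Both strands were searched and overlapping matches, also between the motifs, were counted. Of 32851 promoter windows of this length, 52.0% held CACCC and 32.7% held GGGCGG, and 0.886% held 6 or more GGGCGG matches. Windows were given for 8 of the 10 genes, not for Klf10 and Klf16. GGGCGG was found in 6 of the 8 and CACCC in 6. Klf3 had the most matches to each motif, so this pair does not stand for the other members. GGGCGG matches numbered 4 for Klf11, 3 for Klf13, 1 each for Klf6, Klf7 and Klf15, and 0 for Klf12. The Klf9 window was 59.6% G or C and the Klf3 window 78.4%. A match is a run of letters and was not tied to any signal here.

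Klf13, another Sin3-binding factor and a regulator of chemokine expression in T cells, was read by 3 probe sets that disagreed. The probe set 1432543_a_at gave 7.39 in clone 1 against 8.33 in clone 2 (7.86 ± 0.67, SD, n = 2), 1.92-fold higher in clone 2. The probe set 1436316_at gave 8.04 and 7.91, a difference of -0.13. The third, 1456030_at, gave 5.19 and 5.16 and was not above background. In the second dimmest band 34 of 4209 probe sets (0.808%) differed by as much as 1432543_a_at. One probe set therefore puts Klf13 higher in clone 2 and another of like signal does not.

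The other Sin3-binding members were read by 1 probe set each. Klf10, an early gene of the TGF-beta response, gave 9.85 in clone 1 against 10.08 in clone 2, a difference of 0.23. Klf11, its close relative, gave 7.96 and 7.77, a difference of -0.19. Klf16 gave 7.54 and 7.86, a difference of 0.32. All 3 were above background in both clones, and none reached 1.5-fold. Within their signal bands 26.0% to 52.2% of probe sets differed by at least as much, so these values do not stand apart from the array.

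Klf3 and Klf12, which recruit CtBP, were unlike each other in signal over background. Klf3, a repressor that acts in erythroid, B and fat cells, was above background in both clones by 5 of its 7 probe sets. The probe set 1431630_a_at gave 9.77 in clone 1 and 9.62 in clone 2, and 1454666_at gave 9.01 and 9.36. The other 3 lay between 7.03 and 8.12, and the 5 differences ran from -0.23 to 0.35 with a median of -0.15, 2 of them with clone 2 higher. The 2 remaining Klf3 probe sets, 1442920_at (5.13 and 6.02) and 1458487_at (5.18 and 4.07), were below background, and differences of that size in opposite directions at such signals were not read. Klf12, first described as a repressor of the AP-2alpha gene, had no probe set above background among 5. Its values ran from 3.55 to 5.97 in clone 1 and from 3.38 to 6.20 in clone 2. The nearest to background was 1455521_at, at 5.88 and 6.20 against levels of 6.75 and 6.33. Klf12 was above background in both clones where the level was set from sensory receptor probe sets, at 5.41 and 5.07.

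Klf6 and Klf7, members with an acidic activation domain, were above background by some of their probe sets. Klf6, an immediate early gene in many cells, gave 7.71 in clone 1 and 7.85 in clone 2 with 1433508_at, 7.35 and 7.65 with 1427742_a_at, and 6.90 and 7.30 with 1447448_s_at. All 3 were higher in clone 2, by 0.14 to 0.40, under 1.5-fold, where 63.7% of all filtered probe sets were higher in clone 2. Within their signal bands 24.1% to 63.9% of probe sets differed by at least as much. Under quantile normalization the difference of 1433508_at was 0. The probe sets 1418280_at (5.49 and 5.77) and 1459718_x_at (3.76 and 3.06) were not above background. The latter points to the same sequence record as 1447448_s_at, which was above background in both clones. Klf7, known from sensory neuron development, was read by 4 probe sets that all point to 1 sequence record. The probe set 1419354_at gave 8.53 and 8.25, a difference of -0.28. The probe set 1449439_at gave 6.20 and 6.83 and passed in clone 2 alone. Its difference of 0.63 counts among the 7 past 1.5-fold, but with clone 1 raised to its background level clone 2 is at least 1.06-fold higher, so this call rests on a signal below background. The probe set 1419356_at gave 6.39 and 6.36 and also passed in clone 2 alone, through the lower level there, and 1419355_at (5.94 and 6.03) passed in neither.

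Klf15, a metabolic regulator of liver, muscle and kidney that glucocorticoids induce, was read by 1 probe set. It gave 7.91 in clone 1 against 8.34 in clone 2 (8.13 ± 0.30, SD, n = 2), above background in both and 1.35-fold higher in clone 2. In its signal band 16.8% of probe sets differed by at least as much.

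**Figure D3:**
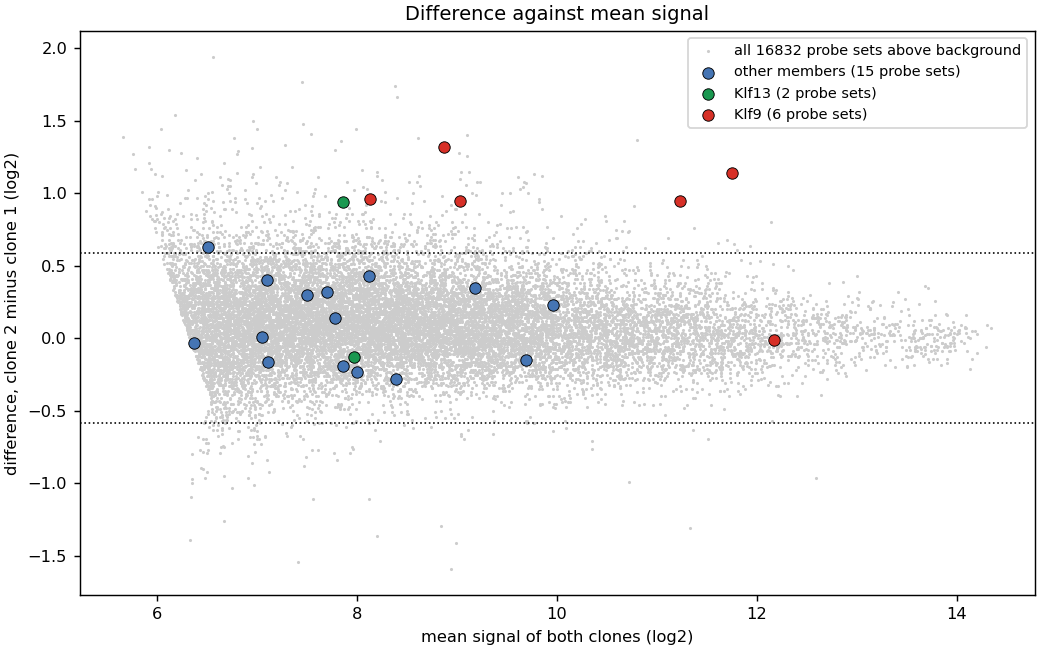
Difference between the clones against the mean signal of both, both on the log2 scale, for all 16832 probe sets that passed background in 1 clone or both (grey) and for the 23 of the Klf genes (coloured); dotted lines mark 1.5-fold. Of the 6 Klf9 points, 5 lie near the upper edge of the grey points of like signal, and the 2 Klf13 points lie far apart at nearly the same signal.

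Over the 23 probe sets the median difference was 0.30, against 0.09 over all filtered probe sets. Of the 23, 15 were higher in clone 2 and 8 in clone 1, while 63.7% of all filtered probe sets were higher in clone 2. Quantile normalization gave 13 and 9 of the 23, with a share of 49.0% over all, and median centring 17 and 6, with 77.2%. The share with clone 2 higher is thus near that of the array, and it moves with the scaling. Without Klf9 the median of the other 17 was 0.14. With each gene read by its brightest probe set, the 9 genes above background had a median difference of -0.01, with 0 past 1.5-fold, against 0.09 over the 9539 genes so read. Whether Klf9 and Klf13 differ between the clones thus depends on the probe set read.

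Read by their brightest probe sets, Klf2, Klf4 and Klf5 were all higher in clone 2, as were 63.7% of all filtered probe sets. Klf5 gave 11.61 in clone 1 and 12.25 in clone 2, Klf4 11.16 and 11.67, and Klf2 11.02 and 11.38. In the brightest band 1.23% of probe sets differed by at least as much as that of Klf5, 3.21% as that of Klf4 and 10.2% as that of Klf2. Another Klf4 probe set, 1417395_at, gave 9.29 and 10.41, 2.17-fold higher in clone 2, a difference of 1.12 that lies within the range of the 5 Klf9 probe sets. The signal of Klf5, the overexpressed gene, was 1.56-fold higher in clone 2 by 1451021_a_at, and 1.22-fold by 1451739_at (6.97 and 7.26). The remaining Klf5 probe set, 1430255_at, was not above background. Whether these probe sets read the introduced Klf5, the cells' own transcript or both was not analysed here. With 1 array per clone the level of Klf5 cannot be told apart from any other difference between the clones. Klf1, Klf14 and Klf17 were not above background. Of 7 measured Sp genes, which share the zinc fingers of the family, Sp1 (11.70 and 11.48) and Sp3 (7.75 and 8.57, 1.77-fold higher in clone 2) were above background. Over the array 47.2% of named genes had a probe set above background in both clones. Each Sp gene was read by its brightest probe set alone, and other Sp probe sets were not described.

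The cofactors through which these factors act were mostly above background, read here by the brightest probe set, where 47.2% of all named genes had a probe set above background in both clones. Of 14 measured Sin3 complex genes 13 passed in both clones, among them the histone-binding subunits Rbbp7 (12.84 and 12.84) and Rbbp4 (12.82 and 12.83), with a median difference of 0.08. The exceptions in size were Arid4a and Arid4b. Arid4a gave 6.57 (below background) and 8.34, at least 3.01-fold higher in clone 2 with clone 1 raised to its background level. That bound holds for the clone 1 level of 6.75 and is smaller at the 99th percentile level of 7.69. At the 90th percentile level of 6.19 or the sensory receptor level of 5.41, Arid4a is above background in clone 1 too. The same holds at 6.53, the level without Mylpf and Ighm. The difference as deposited is 1.77, or 3.41-fold. Arid4b gave 7.67 and 8.28 (1.53-fold). The subunit gene Sap130 gave 8.57 and 8.82. All 8 CtBP complex genes passed in at least 1 clone, 7 of them in both, with a median of 0.08 and 0 past 1.5-fold. They included the demethylase Kdm1a (12.26 and 12.49), Ctbp2 (12.09 and 12.05), Ctbp1 (9.47 and 9.83) and the methyltransferase Ehmt2 (10.93 and 11.06). The CtBP median turned to -0.03 under quantile normalization and to -0.01 under loess, and the Sin3 median came down to 0.02 under both. Of 8 coactivator and turnover genes 6 passed in both clones and all 6 were higher in clone 2, by 0.26 to 0.50 with a median of 0.34, where 63.7% of all filtered probe sets were higher in clone 2 and the median over all genes so read was 0.09. All 6 were also higher under median centring (0.35 to 0.59), quantile normalization (0.15 to 0.39) and loess (0.16 to 0.40). Within their signal bands 7.73% to 32.5% of probe sets differed by at least as much. Other probe sets of the cofactor genes were not described. Fhl2 and Fhl3 were not above background. The 6 were the acetyltransferases Ep300 (8.92 and 9.42), Kat2a (10.24 and 10.61), Kat2b (10.31 and 10.59) and Crebbp, with Fbxw7 (8.62 and 8.97) and Wwp1, which encode ubiquitin ligase components, and none of the 6 reached 1.5-fold.

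**Figure D4:**
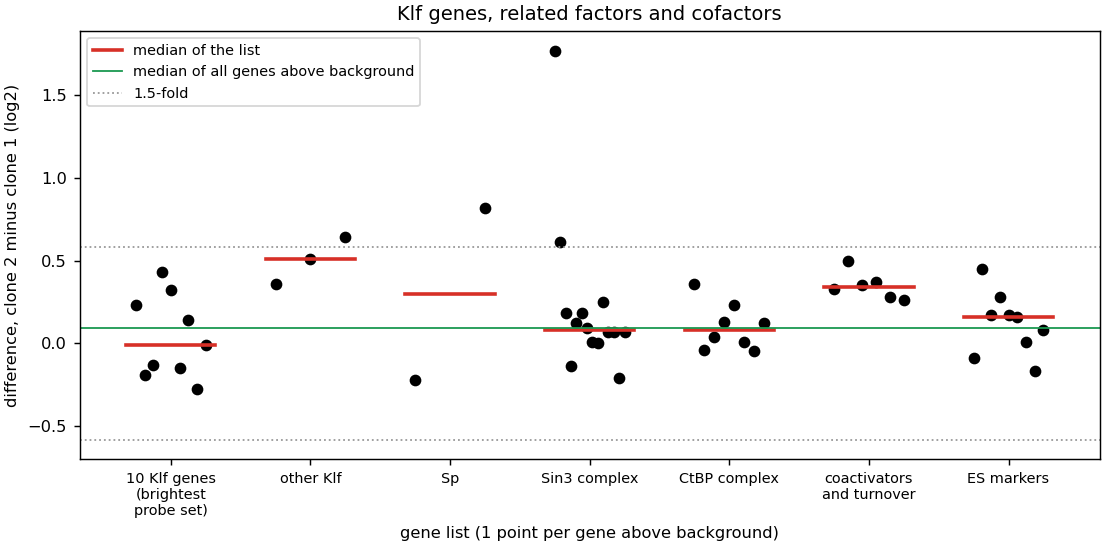
Difference between the clones (clone 2 minus clone 1, log2), 1 point per gene above background and each gene read by its brightest probe set, for the Klf genes described, other Klf and Sp genes, cofactor lists and ES cell markers; red bars are list medians. The 6 coactivator and turnover genes lie between 0.26 and 0.50, Arid4a lies at 1.77 in the Sin3 list, and the 9 Klf genes read by their brightest probe set lie between -0.28 and 0.43.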

How the data were processed

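Per the submitters' processing notes the authors used Transcriptome Analysis Console, and they deposited 1 signal for each probe set on each array. The software version, the background correction and the normalization are not stated in the labels, nor is whether further arrays were processed together with these 2. The log base of the deposited values is not stated either, and log2 was inferred from their range, 2.21 to 14.38. Column medians were 5.27 and 5.18. Values were used as deposited. No probe-level intensities were used, so there are no detection calls, and precision is limited by having 2 arrays.

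Of 45037 probe sets 34945 had 1 gene symbol, 932 several and 9160 are unnamed here. All 10 gene identifiers matched the RefSeq gene table of GRCm38.p6. A gene in a cofactor or marker list was read by its brightest probe set. All probe sets of the 10 Klf genes were described, and of the other lists up to 3 genes with the largest difference and up to 2 with the highest signal. The members and lists were chosen with earlier results of these data known. Of 56 listed background genes, 50 had a probe set with a single symbol. Calculations used Python 3.11.15 and statsmodels 0.14.6. The 2-fold rule and the normalizations were tested on simulated data with planted differences beyond 2-fold. The 1.5-fold rule was not tested in this way. Alternatives were 3 normalizations, other background levels or none, and other choices of probe sets. Protein features of the members were not analysed here.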

Additional observations from a re-analysis of the deposited data

How the results depend on the processing

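The 21 probe sets and 9 genes above background in both clones became 14 and 8 with background at the 99th percentile and 28 and 10 with the level from sensory receptor probe sets. Each clone alone gave 21 to 23 probe sets and 9 genes. The count past 1.5-fold, 7, ran from 6 to 10 over the other settings that counted probe sets. It was 2 without Klf9, which was left out after its values were seen. With each gene read by its brightest probe set, 0 of the 9 genes above background reached 1.5-fold. The count past 2-fold, 2, became 6 under median centring, where 4 more probe sets crossed the line, and 0 without Klf9. Median centring also raised the share of all filtered probe sets past 1.5-fold, from 5.55% to 8.53%. The median difference of 0.30 was 0.39 under median centring, 0.175 under quantile normalization and 0.19 under loess. The median over all filtered probe sets moved as well, from 0.09 to 0.18, 0 and 0.01 in the same order. The median of the Klf probe sets was 0.23 without _s_at and _x_at probe sets and 0.14 with no background filter. It was 0.14 without Klf9 and -0.01 by the brightest probe set per gene. Under the 3 normalizations the 5 Klf9 probe sets kept differences of 0.835 to 1.41, and none of the 35 differences moved by more than 0.16. Background genes without Mylpf and Ighm, also chosen after the data were seen, gave 21 probe sets, 9 genes and a median of 0.30. Signals near background limit Klf7, Klf12 and the dim probe sets of Klf3 and Klf6. No paired analysis was possible because there is 1 group.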

Other observations

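Over the 1115 genes with at least 3 probe sets above background in both clones, 14 had a range of differences at least as wide as the 1.33 of Klf9, Klf9 included. A range can widen with the number of probe sets, and only 36 genes had the 6 or more that Klf9 had. The count is therefore not one over genes like Klf9. Of the 4 genes whose median difference was at least as far from 0 as Klf9's, the imprinted non-coding gene Meg3 had differences of 0.57 to 1.26, the GTPase gene Rab10 0.30 to 1.66, and the homeobox gene Six4 -0.59 to 1.15. Among probe sets above background in both clones, the glycosyltransferase gene B4galt6 was the other gene with at least 4 past 1.5-fold in the same direction. Its differences were 0.60 to 1.00. These genes were named after their values were seen.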
